A study of Mus musculus with 8 samples.

Results

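The Sox and T-box genes, which encode transcription factors of early development, were examined for H3K27-me3, a histone mark associated with silent genes, in the liver of fasted mice. The set held 32 genes, 18 Sox and 14 T-box, out of 21864 protein-coding genes, and its members were found by gene name. H3K27-me3 ChIP-seq was done on livers of male C57BL/6 mice carrying floxed JMJD3 alleles, a background shared by both groups. At 8 weeks of age the mice received AAV-TBG-Cre (AAV-Cre group), a virus in which the hepatocyte promoter TBG drives the Cre recombinase, or the control virus AAV-GFP (AAV-GFP group). They were fasted for 16 h at 12 weeks after injection. Each virus group had 2 H3K27-me3 and 2 input libraries, and the labels call the material primary liver cells although the protocol starts from minced liver. JMJD3, encoded by Kdm6b, is a demethylase of H3K27-me3, and the comparison asks where the mark lies when hepatocyte JMJD3 is lowered. The peak lists hold no measure of JMJD3 itself.

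H3K27-me3 is deposited by Polycomb repressive complexes, which in many tissues hold developmental regulators silent in broad domains around CpG-rich start sites. Sox factors bind DNA through an HMG box and T-box factors through the T-box, and members of both families direct cell fate in the nervous system, heart, limbs, endoderm and blood. In adult liver most of them are silent in hepatocytes, while Sox9 marks bile duct cells, Sox17, Sox18 and Sox7 act in endothelium, and Tbx3 acts in liver growth during development.

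The authors deposited 1 list of enriched regions per virus group, made from both H3K27-me3 libraries, so the lists give no value per library, no difference between groups could be set against a spread between replicates, and no test between groups was made. The AAV-Cre list held 59267 regions that covered 73.7 Mb, with a median width of 753 bp and none under 300 bp. The AAV-GFP list held 34586 regions that covered 14.9 Mb, with a median width of 231 bp and none under 120 bp. A q-value of 0.05 or lower was reached by 88.56% of AAV-Cre and 46.85% of AAV-GFP regions, and counts and covered lengths use all regions unless a limit is named. The 2 lists thus differed in length, in smallest width and in the share of regions with a low q-value across the genome. Values at the members are given beside those over all genes for this reason. Of 10 hepatocyte genes, 0 had a region within 15 kb of a start site in either list, while all 4 bile duct genes, Sox9 among them, had one in both. Of 4 immune cell genes 3 had a region within 15 kb in AAV-Cre and 0 in AAV-GFP, and of 4 endothelial genes 4 and 3. The part of these cell types in the results was not tested, and in bulk liver, more cells of a type and more mark per cell cannot be told apart.

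The following promoters are shown because they span the range of outcomes among the members, from covered in both lists to covered in neither. The sequences are RefSeq promoters of build GRCm38.p6, from 250 bases before to 50 bases after a start site, and 23 of the 32 members matched that table. Sox7, Sox9, Sox10, Sox17, Sox18, Tbx2, Tbx3, Tbx5 and Tbx15 were not matched. Each is written 5′ to 3′ in the direction of transcription, and capitals mark CpG dinucleotides.
Sox21 promoter chr14:118236981-118237280 (- strand): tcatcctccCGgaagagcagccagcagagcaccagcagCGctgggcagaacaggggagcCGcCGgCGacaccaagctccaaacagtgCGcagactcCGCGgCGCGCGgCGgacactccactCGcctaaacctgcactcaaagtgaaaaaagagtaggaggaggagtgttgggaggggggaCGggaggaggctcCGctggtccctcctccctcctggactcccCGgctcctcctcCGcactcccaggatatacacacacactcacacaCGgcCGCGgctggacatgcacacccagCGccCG
Tbr1 promoter chr2:61804203-61804502 (+ strand): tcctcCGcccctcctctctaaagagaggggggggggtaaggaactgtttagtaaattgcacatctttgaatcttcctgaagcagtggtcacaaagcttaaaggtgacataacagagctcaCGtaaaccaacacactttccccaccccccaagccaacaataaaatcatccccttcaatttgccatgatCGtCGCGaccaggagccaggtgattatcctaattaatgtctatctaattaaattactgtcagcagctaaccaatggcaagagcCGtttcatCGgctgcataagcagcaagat
Sox30 promoter chr11:45980060-45980359 (+ strand): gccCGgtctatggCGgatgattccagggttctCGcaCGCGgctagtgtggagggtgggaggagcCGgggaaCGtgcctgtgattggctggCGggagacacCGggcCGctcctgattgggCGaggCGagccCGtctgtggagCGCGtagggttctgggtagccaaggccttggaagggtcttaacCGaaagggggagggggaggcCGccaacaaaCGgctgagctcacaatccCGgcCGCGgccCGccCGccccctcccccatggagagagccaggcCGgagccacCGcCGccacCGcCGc
Sox12 promoter chr2:152397997-152398296 (- strand): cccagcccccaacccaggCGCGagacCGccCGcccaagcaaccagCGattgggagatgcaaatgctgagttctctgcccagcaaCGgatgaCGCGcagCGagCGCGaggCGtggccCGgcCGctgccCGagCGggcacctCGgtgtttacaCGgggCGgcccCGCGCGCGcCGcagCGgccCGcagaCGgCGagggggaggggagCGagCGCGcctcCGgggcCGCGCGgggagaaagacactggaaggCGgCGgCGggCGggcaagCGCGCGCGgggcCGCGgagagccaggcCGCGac
Sox13 promoter chr1:133424163-133424462 (- strand): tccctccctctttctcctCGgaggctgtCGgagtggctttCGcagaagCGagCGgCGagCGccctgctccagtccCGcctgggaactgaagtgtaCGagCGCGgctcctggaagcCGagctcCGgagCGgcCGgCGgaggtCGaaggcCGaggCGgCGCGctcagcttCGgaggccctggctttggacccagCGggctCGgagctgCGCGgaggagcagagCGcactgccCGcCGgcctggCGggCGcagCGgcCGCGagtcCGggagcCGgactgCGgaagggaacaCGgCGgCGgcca
Tbx6 promoter chr7:126781233-126781532 (+ strand): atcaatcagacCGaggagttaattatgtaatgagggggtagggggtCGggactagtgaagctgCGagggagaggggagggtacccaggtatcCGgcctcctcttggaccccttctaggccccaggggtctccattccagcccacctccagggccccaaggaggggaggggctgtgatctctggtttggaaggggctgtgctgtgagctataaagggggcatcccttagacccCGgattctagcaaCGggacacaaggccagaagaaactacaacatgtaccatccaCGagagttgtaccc
The Sox21 promoter, with 22 CpGs in 300 bases, was covered in full in both lists. The Tbr1 promoter was also covered in full in both lists, with only 7 CpGs. At Sox30, with 28 CpGs, all 300 bases were covered in AAV-Cre and 0 in AAV-GFP, where the nearest region began 174 bp from the start site. The Sox12 promoter, with 47 CpGs, had 40 bases covered in AAV-Cre, all at its downstream end, and 0 in AAV-GFP. The promoters of Sox13, with 40 CpGs, and of Tbx6, with 7, had 0 bases covered in either list. Across 32851 mouse promoters of this length the median was 7 CpGs. The Sox core AACAAT was found on either strand in 10.7% of all promoters and in those of 3 of the 23 matched members, and the related core ACAAAG in 18.7% and 4 members. The T-box letters GGTGTGA were found in 3.98% and 1 member, Sox6. The shares are per promoter, while a member counted where any of its promoters matched, so the 2 are not in the same unit. Sox6 had several promoters, and its AACAAT and GGTGTGA lay in those 214034 and 192604 bp from its most upstream start site. The Tbr1 promoter held both Sox cores, which share the letters ACAA, and a match is a description of the letters only.

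Most Sox and T-box genes carried H3K27-me3 at the start site in both groups. In AAV-Cre 25 of 32 members had a region at most 1 kb from a start site, against 23.9% of all protein-coding genes, and in AAV-GFP 24 members had one, against 16.6%. The same 24 genes had a region in both lists. Sox12 was the only member with a region in AAV-Cre alone, where the share of all genes was 7.62%, and 0 members had one in AAV-GFP alone, with 0.288% of all genes. Sox5, Sox7, Sox13, Sox15, Tbx6, Tbx10 and Tbx19 had no region within 1 kb in either list. Presence at the start site was therefore nearly the same in the 2 lists, and the lists differed at these genes mainly in how far the regions reached.

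Within 15 kb of a start site, the window used by the study, 28 members had a region in AAV-Cre and 25 in AAV-GFP, against 41.6% and 28% of all genes. The 3 members with a region in AAV-Cre alone were Sox7, Sox13 and Tbx19, which is 9.38% of the members, beside 14.8% of all genes, and 0 members had one in AAV-GFP alone, beside 1.21%. A region lay over the gene body of 26 members in AAV-Cre and 24 in AAV-GFP, against 28.9% and 20.7% of all genes. The strongest region of most members was also among the stronger ones of each list. For each gene the strongest region within 15 kb or over the body was taken, by the p-value of the peak caller. It belonged to the top 10% of its own list for 25 members in AAV-Cre and 21 in AAV-GFP, against 20.5% and 11.9% of all genes. These shares include genes without a region. They stand for 4487 and 2608 genes, where 9087 and 6114 genes had a region within 15 kb. Other regions at members were weak, such as the AAV-GFP region nearest to the Sox30 start site, with a q-value of 0.53.

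**Figure D1:**
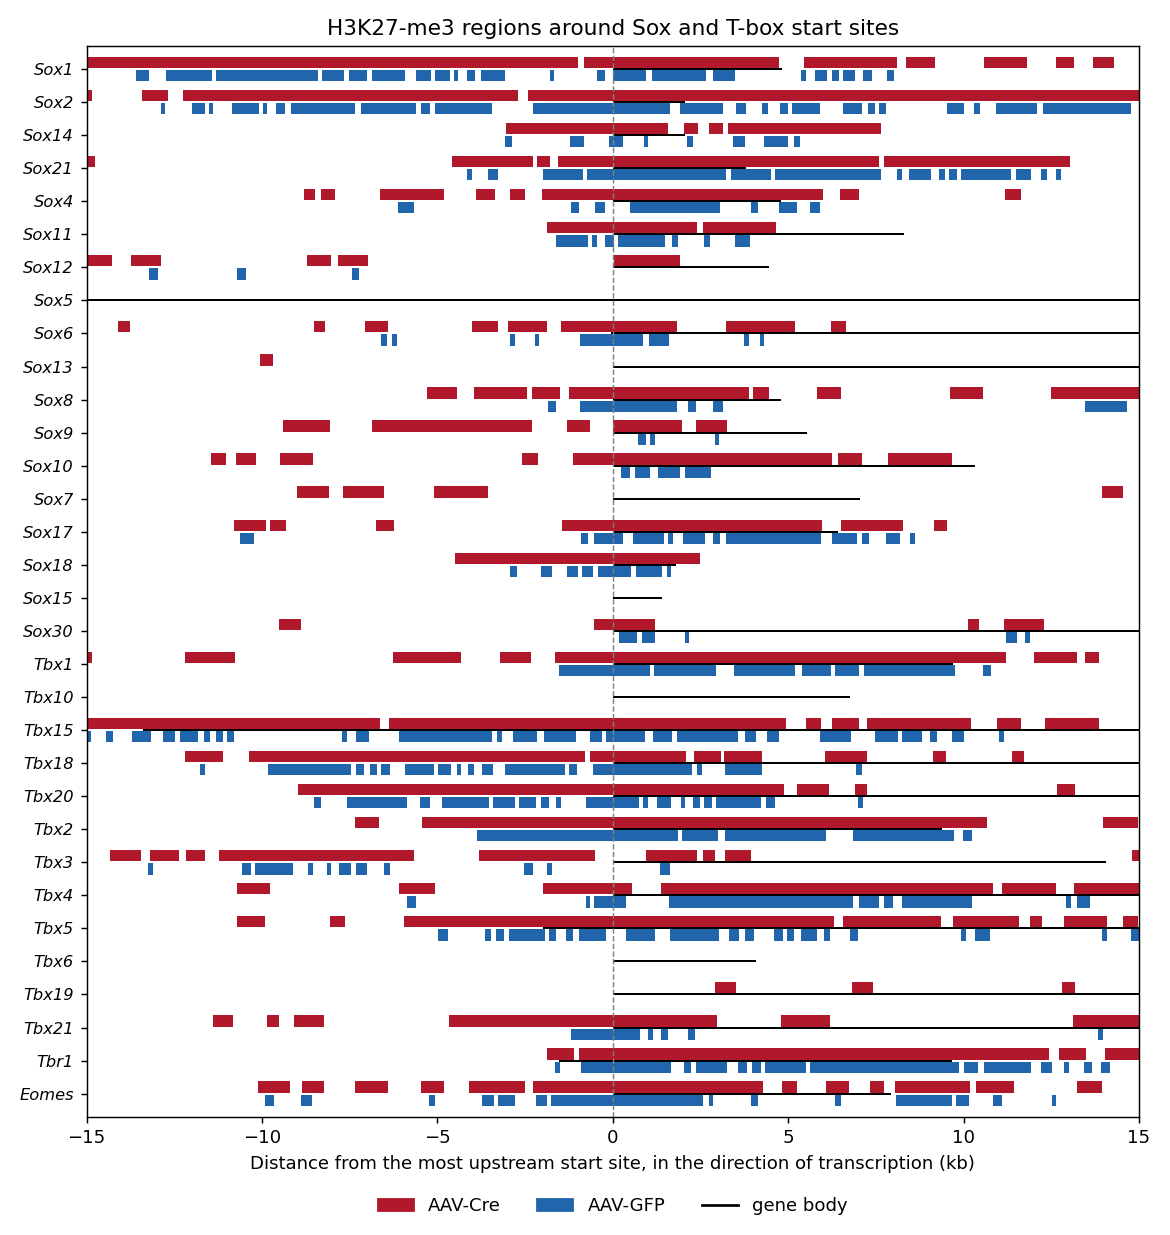
Regions of the AAV-Cre (red) and AAV-GFP (blue) lists within 15 kb of the most upstream start site of each member, in the direction of transcription, with gene bodies as black lines. Genes are ordered by subfamily. Start sites are those of basic protein-coding transcripts while bodies span the whole gene, so some bodies begin left of 0. At many members AAV-Cre regions span the start site as long blocks where AAV-GFP has rows of shorter ones. No AAV-Cre region spans the plotted start site of Sox7, Sox9, Sox12, Sox13, Tbx3 or Tbx19. Sox5, Sox15, Tbx6 and Tbx10 are empty in both.

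The covered length showed the difference in reach. The members had a median of 12417 bp covered within 15 kb in AAV-Cre and of 3344.5 bp in AAV-GFP. All 25 members with regions in both lists had more bases covered in AAV-Cre, by a median ratio of 1.935 and a range of 1.278 to 19.7. This direction was that of the lists as a whole, since 5838 of 5850 genes with regions in both lists had more bases covered in AAV-Cre, with a median ratio of 3.8. The ratio at the members is limited by the window where AAV-GFP already covers much of it. Sox2, for instance, could reach at most 1.59. Of the bases that AAV-GFP left uncovered at a member with an AAV-GFP region, AAV-Cre covered a median of 30.4%, compared with 12% for all genes with an AAV-GFP region and 34.3% for the 26 forkhead genes with one, another family of developmental regulators. Among the members this share ran from 5.03% at Sox6 to 80.6% at Sox2. The reverse was rare, with 2572 bases in AAV-GFP regions alone at these members, compared with 180614 in both lists and 184718 in AAV-Cre alone.

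**Figure D2:**
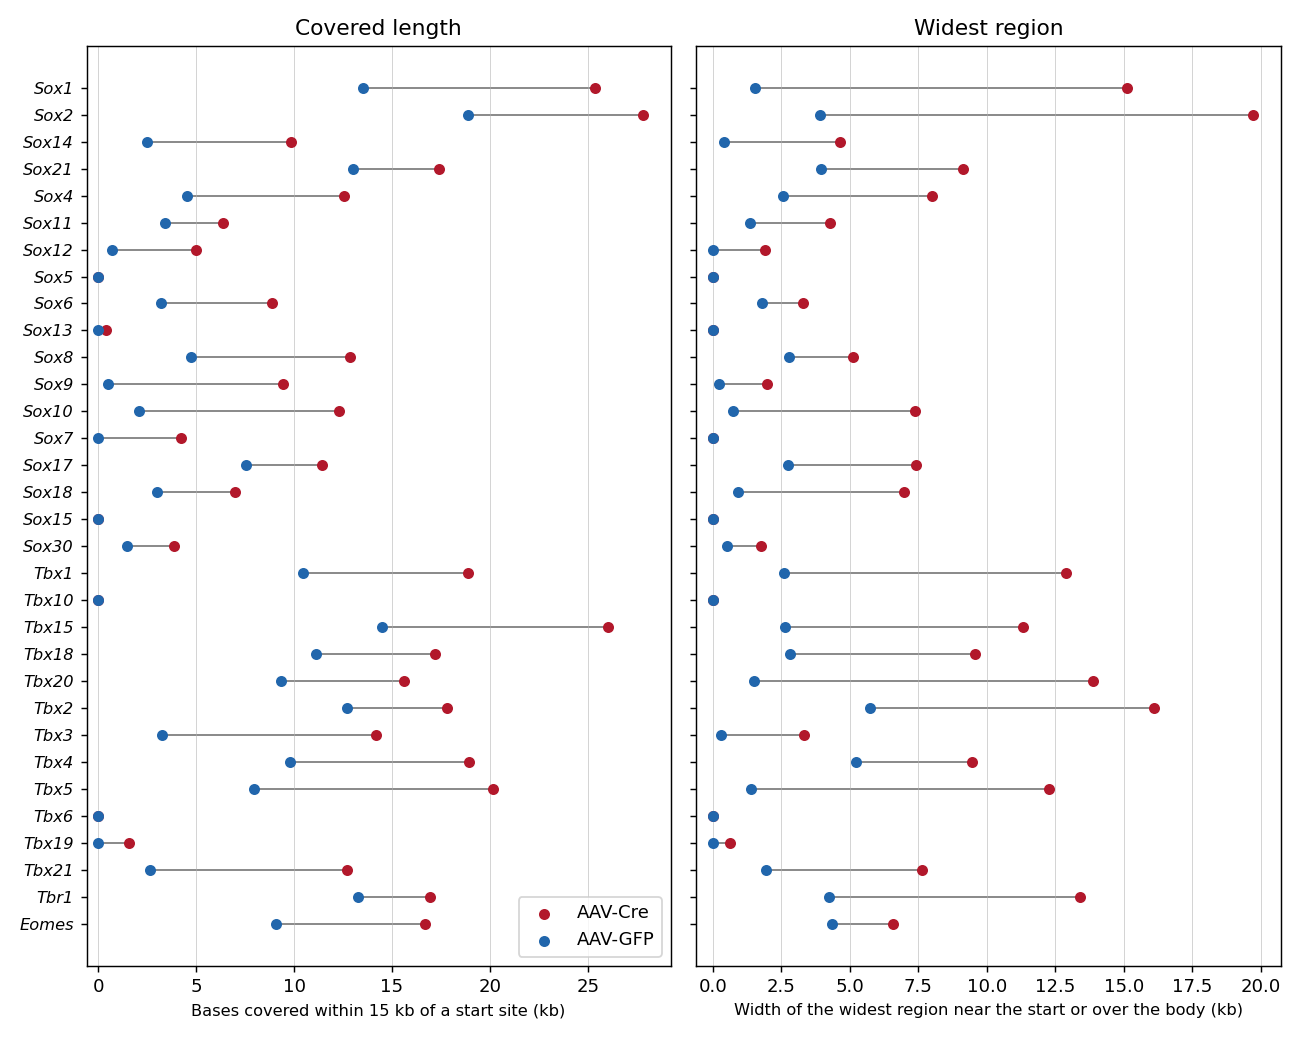
Bases covered within 15 kb of a start site (left, kb) and width of the widest region within 1 kb or over the gene body (right, kb) for each of the 32 members, with 1 point per list and a line joining the lists. Every red point lies at or to the right of its blue point, from 0 in both lists at Sox5 to 27848 and 18898 bp covered at Sox2.

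The SoxB1 genes Sox1 and Sox2, which maintain neural progenitors and, for Sox2, pluripotent cells, lay in long domains, and Sox2 had the largest covered length and the widest AAV-Cre region of the set. At Sox2, 27848 of 30001 bp were covered in AAV-Cre and 18898 bp in AAV-GFP. The AAV-Cre coverage at Sox2 came as 4 regions, the widest of 19736 bp, and that of AAV-GFP as 23 regions, the widest of 3909 bp. At Sox1, 25392 bp were covered in AAV-Cre and 13510 bp in AAV-GFP. The widest AAV-Cre region there, of 15130 bp, ended 977 bp upstream of the start site, and a separate region of 5550 bp covered the start site and 98.2% of the gene. The SoxB2 genes counteract SoxB1 factors in neurons. Sox21 had 17383 bp covered in AAV-Cre and 13010 bp in AAV-GFP, where its strongest region had a −log10 p of 45.7, the highest of any member in that list. Sox14 had 9854 bp and 2472 bp, and the AAV-GFP region over its start site was 398 bp wide with a q-value of 0.0138.

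The SoxC genes act in progenitors of neurons and of several organs. Sox4 carried the strongest region of any member in AAV-Cre, with a −log10 p of 82.3, a width of 8010 bp and the whole gene inside it. In AAV-GFP the widest region at Sox4 was 2573 bp and covered length was 4541 bp, against 12535 bp in AAV-Cre. Sox11 had 6354 bp covered in AAV-Cre and 3422 bp in AAV-GFP, a ratio of 1.86. Sox12, the third SoxC gene, stood apart from both. Its AAV-Cre region of 1904 bp began 10 bp from the start site and had a q-value of 1.31e-26, a −log10 p of 29.1 and a fold enrichment of 7.34 over the local background. It covered all 942 bp of the coding sequence and 42.8% of the gene. In AAV-GFP the nearest region was 193 bp wide and 7243 bp away, with a q-value of 0.0737, and 0 bp of the gene were covered. The strongest AAV-Cre region in the Sox12 window, of 4092 bp, lay over start sites of the neighbours 6820408C15Rik and Zcchc3 and not at Sox12.

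Of the SoxD genes, Sox5 and Sox13 were among the least covered members. Sox5, which acts in cartilage and neurons and spans 953553 bp, had no region nearer than 481917 bp in AAV-Cre and 614688 bp in AAV-GFP. Sox6, a partner of Sox5 in cartilage and a repressor in red cell development, had a 3306 bp AAV-Cre region and a 1777 bp AAV-GFP region over its most upstream start site. Within 15 kb of the Sox6 start sites, a window of 119130 bp, 8889 bp were covered in AAV-Cre and 3221 bp in AAV-GFP. Of the 567925 bp of the Sox6 gene, 0.751% and 0.309% were covered. Sox13 had a single 377 bp region in AAV-Cre, 9681 bp away with a q-value of 0.0017, and none within 210406 bp in AAV-GFP.

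The SoxE genes direct neural crest, glia, cartilage and bile duct cells. Sox8 had 12875 bp covered in AAV-Cre and 4729 bp in AAV-GFP, and Sox10 had 12299 bp and 2070 bp. Sox9 had the largest ratio of the set, with 9414 bp in AAV-Cre and 477 bp in AAV-GFP, or 19.7. Of the 5 AAV-Cre regions at Sox9, 3 lay upstream of the start site and 2 inside the gene, where they covered 51.7% of the body and 98.4% of the coding sequence. In AAV-GFP Sox9 had 3 regions of 221, 129 and 127 bp, all inside the gene, with q-values of 0.000232, 0.00238 and 0.182, and 8.62% of the body was covered. Sox9 thus had a region within 1 kb in both lists but differed widely in covered length, and bulk liver holds bile duct cells, where Sox9 is active, as well as hepatocytes.

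The SoxF genes specify endothelium. Sox17 had 11424 bp covered in AAV-Cre and 7534 bp in AAV-GFP, a ratio of 1.52. At Sox18 a single AAV-Cre region of 6979 bp held the whole gene, where AAV-GFP had 7 regions that summed to 2977 bp, the widest of 918 bp. Sox7 had no region over its start site or body in either list. Its AAV-Cre regions, 4 in number and 4222 bp in sum, began 3570 bp from the start site with a q-value of 2.27e-05, while AAV-GFP had none within 101979 bp. The 3 SoxF genes therefore did not share a pattern in either list.

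Sox15 and Sox30 are the single members of the groups SoxG and SoxH. Sox15, known from muscle precursors and placenta, had its nearest regions 37350 bp and 38421 bp away, both closer to Shbg. Sox30, a factor of male germ cells, had 3854 bp covered in AAV-Cre and 1476 bp in AAV-GFP. The AAV-GFP region nearest to the Sox30 start site had a q-value of 0.53, and the next one, 820 bp from the start, one of 1.54e-05.

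Among the T-box genes, those of the Tbx1 subfamily pattern the pharynx, skeleton, epicardium and heart. The body of Tbx1, 9693 bp long, lay in full within a 12883 bp AAV-Cre region and was covered to 89.3% by 6 AAV-GFP regions. Tbx15, a factor of skeletal muscle and adipose tissue, had 26060 bp covered in AAV-Cre and 14490 bp in AAV-GFP, in 7 and 26 regions. Tbx18 had 17182 bp and 11105 bp, and Tbx20, required in the heart, had 15629 bp and 9336 bp with a 13865 bp AAV-Cre region over its start. The exception in this subfamily was Tbx10, whose nearest regions were 22613 bp away in AAV-Cre and 182180 bp away in AAV-GFP.

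The Tbx2 subfamily forms the linked pairs Tbx2 with Tbx4 and Tbx3 with Tbx5, which act in limbs, lung and heart. Tbx2 had 17807 bp covered in AAV-Cre, 16113 bp of them in a single region that held the gene, and 12727 bp in AAV-GFP. Tbx4 had 18957 bp and 9797 bp. The pair held the only AAV-GFP regions of at least 5 kb at a member, of 5718 bp at Tbx2 and 5220 bp at Tbx4. Tbx5 had 20161 bp covered in AAV-Cre and 7960 bp in AAV-GFP, and its widest AAV-Cre region of 12257 bp held the start site. Tbx3 differed from the other members of the subfamily in that neither list covered its start sites. The nearest AAV-Cre region at Tbx3 ended 494 bp upstream of the first start site and the nearest AAV-GFP region began 993 bp from a start site. Covered length at Tbx3 was 14184 bp in AAV-Cre and 3267 bp in AAV-GFP, and 18% and 2.03% of the body were covered, against 35.4% and 12.8% at Tbx5.

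The space between the linked genes was also covered more in AAV-Cre, which was the direction of the lists as a whole. Over the genome the AAV-Cre list covered 4.93 times the length of the AAV-GFP list. Of the 44473 bp between Tbx2 and Tbx4, 27% was covered in AAV-Cre and 3.61% in AAV-GFP. Of the 147943 bp between Tbx3 and Tbx5, 30.5% was covered in AAV-Cre by 40 regions and 4.35% in AAV-GFP by 25 regions. Coverage of the whole 214551 bp Tbx3 and Tbx5 locus in AAV-Cre was 30.9%, and the space between the genes makes up most of that length.

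The short AAV-GFP regions at Sox9 and Tbx3 are shown because they carry the call of a mark within 1 kb for these genes in AAV-GFP, and both fell out of that call when regions under 300 bp were left out. Both are read from build GRCm38.p6 in the direction of transcription, with CpG dinucleotides in capitals.
Sox9 AAV-GFP region chr11:112782954-112783174 (+ strand): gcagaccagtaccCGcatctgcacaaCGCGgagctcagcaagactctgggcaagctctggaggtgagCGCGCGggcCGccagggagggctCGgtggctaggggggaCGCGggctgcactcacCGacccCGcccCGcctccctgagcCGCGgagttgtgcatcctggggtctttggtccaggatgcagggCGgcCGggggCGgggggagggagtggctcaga
Tbx3 AAV-GFP region chr5:119672011-119672295 (+ strand): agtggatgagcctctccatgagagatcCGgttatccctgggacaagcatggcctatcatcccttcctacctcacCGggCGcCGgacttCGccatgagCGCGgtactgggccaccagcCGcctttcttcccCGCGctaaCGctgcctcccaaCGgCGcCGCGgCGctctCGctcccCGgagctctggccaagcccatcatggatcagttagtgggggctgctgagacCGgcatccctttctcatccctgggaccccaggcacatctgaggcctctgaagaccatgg
The Sox9 region, 221 bp, held 62 bp of coding sequence and 159 bp of intron and lay inside the 1982 bp AAV-Cre region. The Tbx3 region, 285 bp, held 280 bp of coding sequence and 5 bp of untranslated exon and lay inside a 1458 bp AAV-Cre region. They held 18 and 19 CpGs.

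Tbx6, which directs the paraxial mesoderm, had no region within 30412 bp in AAV-Cre or 41186 bp in AAV-GFP, and the regions at these distances were closer to Aldoa and Fam57b. Tbx19, a factor of pituitary cells, had 3 AAV-Cre regions in its body with 1565 bp in sum, the strongest with a q-value of 0.000291, while AAV-GFP had none within 41261 bp. The Tbr1 subfamily holds Tbr1, of cortical neurons, and Eomes and Tbx21, which direct lymphocytes. Tbr1 was covered to 98.6% of its body in AAV-Cre and to 84% in AAV-GFP, and its ratio of covered length, 1.278, was the smallest of the set. Eomes had 16705 bp covered in AAV-Cre and 9091 bp in AAV-GFP. Tbx21 had 12705 bp and 2629 bp, a ratio of 4.83, and its strongest AAV-GFP region, over the start site, was in the top 0.992% of that list. The wider difference at Tbx21 was thus found beside a start site that was strongly marked in both lists.

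Mean coverage was highest within 1 kb of the most upstream start site, as over all genes. At the members it was higher downstream than upstream, which held over all genes close to the start but not further out in AAV-Cre. Where a member has several start sites, the others lie downstream of this one. Within 1 kb of the most upstream start site a mean of 71.3% of bases was covered in AAV-Cre and 51.9% in AAV-GFP over the 32 members, compared with 16.3% and 7.72% over all genes. From 1 to 5 kb downstream the means were 62.4% and 37.4%, and from 5 to 1 kb upstream 50% and 19.9%. From 15 to 5 kb upstream they were 23.9% and 8.85%, and from 5 to 15 kb downstream 32% and 14.8%. The AAV-Cre medians of these far parts were closer, 18.4% upstream and 19.5% downstream. Over all genes the means were 9.65% and 3.19% from 1 to 5 kb downstream and 7.75% and 2.01% from 5 to 1 kb upstream. In the far parts the all-gene means were 5.55% and 1.21% upstream and 5.02% and 1.23% downstream. The T-box genes were covered more than the Sox genes away from the start, with means of 43.2% and 20.8% from 5 to 15 kb downstream against 23.3% and 10.2% at the Sox genes. Within 1 kb the 2 families were alike in AAV-Cre, with 71.2% at the T-box and 71.4% at the Sox genes, while in AAV-GFP the means were 59.7% and 45.9%.

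**Figure D3:**
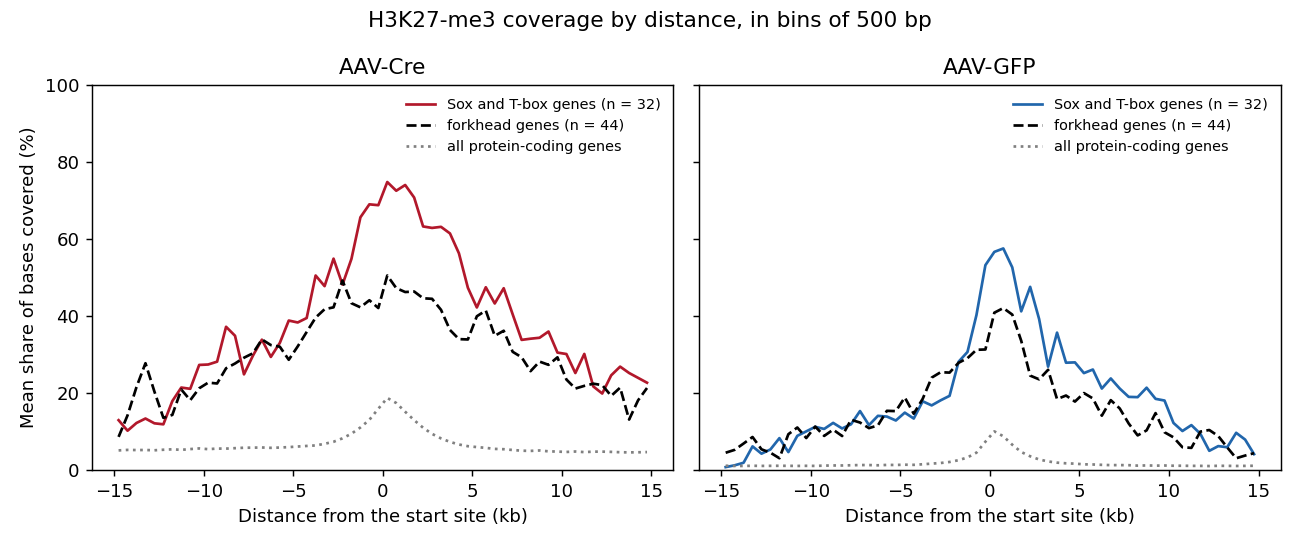
Mean share of bases covered (%) in bins of 500 bp by distance from the most upstream start site (kb, positive downstream), for the 32 members, 44 forkhead genes and all protein-coding genes, in AAV-Cre (left) and AAV-GFP (right). The members reach 74.8% in AAV-Cre just downstream of the start site and 57.6% in AAV-GFP, above the forkhead genes at the start site in both panels.

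Wide regions were common at the members in AAV-Cre. The widest region was at least 5 kb for 18 members in AAV-Cre, against 5.59% of all genes, and for 2 members in AAV-GFP, against 0.279%. The median of the widest region was 6778 bp in AAV-Cre and 1449 bp in AAV-GFP, and with regions merged across gaps of up to 1 kb it was 10225 bp and 4277.5 bp. In the Sox family the medians were 4447 bp and 835 bp, and in the T-box family 9525 bp and 2282.5 bp. The AAV-GFP regions lay almost wholly inside those of AAV-Cre. At the members, 271 of 280 AAV-GFP regions, or 96.8%, overlapped an AAV-Cre region, and 98.4% of their bases did, compared with 86.4% and 93.3% over the whole list. In the other direction, 82 of 169 AAV-Cre regions, or 48.5%, overlapped an AAV-GFP region, compared with 24.2% over the whole list. An AAV-Cre region that overlapped any held a mean of 3.39 AAV-GFP regions at the members and of 2.09 over the whole list. The lists were called as narrow regions, which can split a broad domain, and the difference in width between lists includes any difference in how domains were split.

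Gene bodies were covered to a median of 49.9% in AAV-Cre and 14.1% in AAV-GFP. This direction turned when the AAV-Cre list was limited to the covered length of the AAV-GFP list, where the AAV-Cre median was 12.9%. At least 50% of the body was covered at 16 members in AAV-Cre, against 5.39% of all genes, and at 9 members in AAV-GFP, against 1.74%. In AAV-Cre 6 bodies, those of Sox2, Sox4, Sox18, Sox21, Tbx1 and Tbx2, were covered in full, against 1.33% of all genes, and in AAV-GFP 0 were, against 0.174%. Among the 44 forkhead genes 15 and 2 were. The fully covered genes were short, from 1805 bp at Sox18 to 9693 bp at Tbx1, and Sox9, 5537 bp long, was covered to 51.7%. Longer genes such as Tbx15, of 113879 bp, had long covered stretches that filled a small part of the body, 22.3% in AAV-Cre and 12.2% in AAV-GFP.

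**Figure D4:**
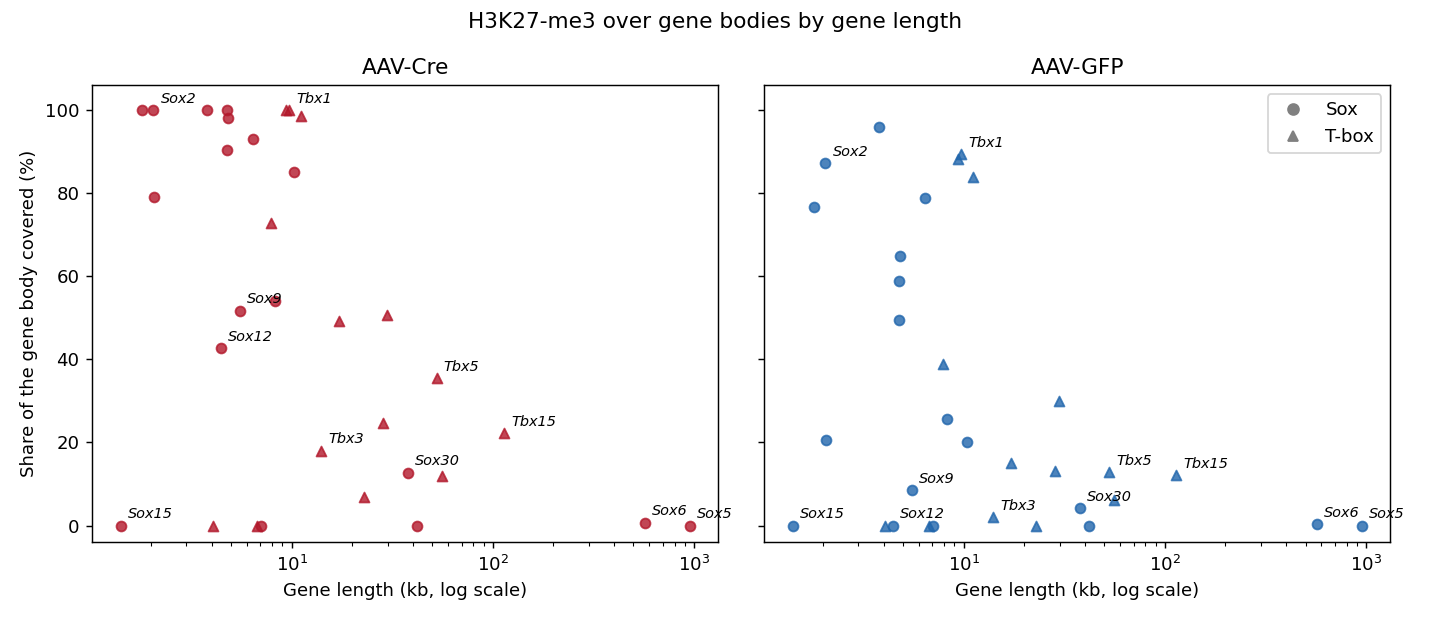
Share of the gene body covered (%) against gene length (kb, log scale) for the 18 Sox genes (circles) and 14 T-box genes (triangles) in AAV-Cre (left) and AAV-GFP (right). Genes over 20 kb lie near or under 50% in both panels, and Sox15, the shortest gene, is at 0 in both.

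The coding sequence itself was covered in full at 15 members in AAV-Cre, where 3.5% of all genes were, and at 6 members in AAV-GFP, where 1.01% were. The 6 in AAV-GFP were Sox2, Sox4, Sox11, Sox17, Sox21 and Tbx2, and all of them were among the 15. Sox12, Sox14 and Sox10 were covered over the whole coding sequence in AAV-Cre and over 0%, 17.5% and 27.2% of it in AAV-GFP. Tbx15 differed from these, with the same 11.4% of its coding sequence covered in both lists, so the added AAV-Cre coverage there lay outside the coding exons. Summed over the 32 members, regions covered 60.5% of coding bases in AAV-Cre and 43.6% in AAV-GFP, 39.2% and 22.4% of untranslated exon bases, and 6.09% and 3.07% of the remaining bases of the bodies, introns included.

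Most members with the mark at the start site had a CpG-rich start. A start site was called CpG-rich where the 500 bp on each side held at least 50% G and C and at least 0.6 of the CpGs expected from its base composition, taking the start site with the most CpGs relative to expectation, and 22 of 32 members had such a start, or 68.8%, against 49.1% of all genes. Of the 22, 90.9% had a region within 1 kb in AAV-Cre and 86.4% in AAV-GFP, and of the other 10, 50% in each list. Over all genes the shares were 25% and 20.7% for CpG-rich starts and 23% and 12.7% for the others. Sox7 and Sox13 were CpG-rich and had no region within 1 kb in either list. In the opposite case, Tbx5, Sox10, Tbx4, Sox6 and Tbr1 were marked in both lists at starts under the limit, with 0.121 of the expected CpGs at Tbx5. A CpG-rich start was thus shared by 19 of the 24 members marked in both lists and by 2 of the 7 marked in neither.

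**Figure D5:**
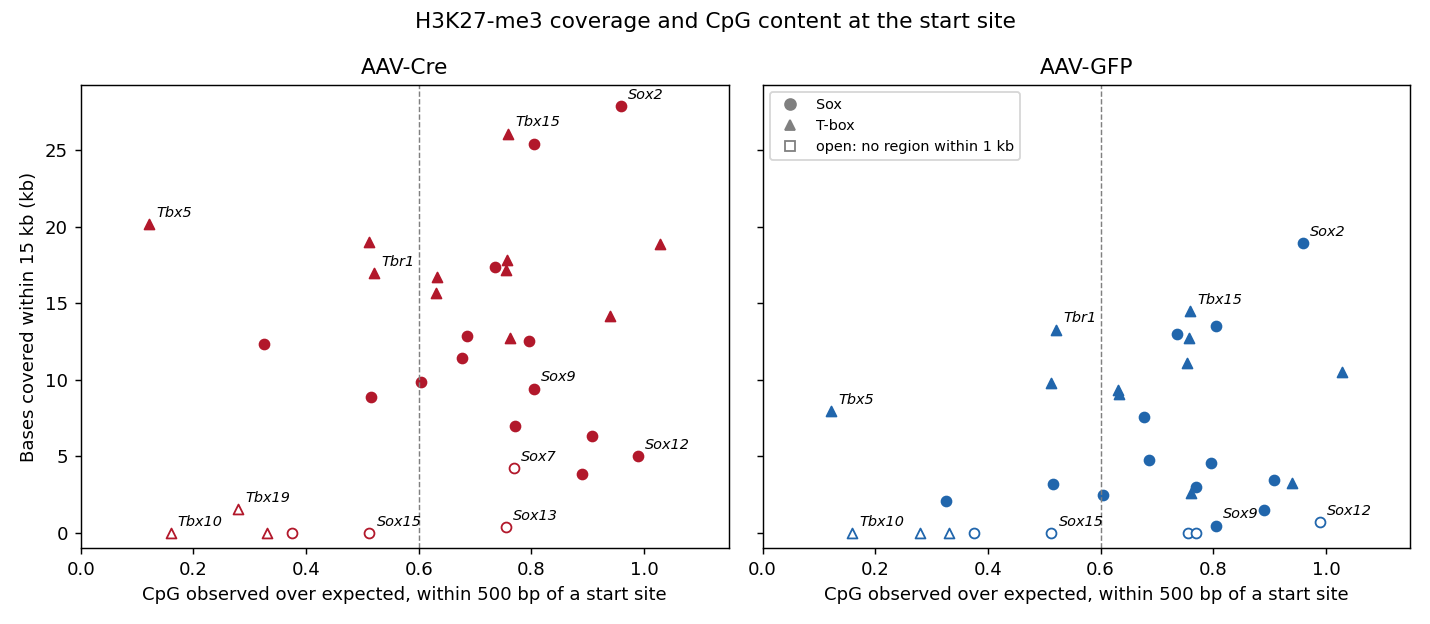
Bases covered within 15 kb of a start site (kb) against CpG observed over expected within 500 bp of the start site with the highest ratio, for the 32 members in AAV-Cre (left) and AAV-GFP (right). Open symbols have no region within 1 kb, the dashed line is at 0.6, and Tbx5 at 0.121 is marked in both panels while Sox13 at 0.755 is open in both.

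Of 5 further genes of these families that were not in the set, Sox3, the third SoxB1 gene, had 9869 bp covered in AAV-Cre and 4699 bp in AAV-GFP within 15 kb, and T, which directs mesoderm, had 8540 bp and 847 bp. Mga, Sry and Tbx22 had 0 bp in both. The forkhead genes, of which 23 of 44 had a region within 1 kb in AAV-Cre and 21 in AAV-GFP, had a median ratio of covered length of 1.98, beside 1.935 at the members.

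The difference in covered length at the members was smaller, but in the same direction, when both lists covered the same length. When the AAV-Cre list was limited to its 2793 strongest regions, which together cover the length of the AAV-GFP list, covered length within 15 kb of the members summed to 237369 bp in AAV-Cre and 183186 bp in AAV-GFP, a ratio of 1.3, compared with 2.03 for the full lists. Over all genes the ratio at this length was 1.24 and over the forkhead genes 1.29, so that of the members was close to both. For the full lists these ratios were 3.48 and 1.98, so there the members were close to the forkhead genes and below all genes. At this length 19 members had an AAV-Cre region within 1 kb, or 59.4%, against 9.34% of all genes and 43.2% of the forkhead genes. Sox12 again had a region only in AAV-Cre, and Sox9, Sox11, Sox14, Sox18, Sox30 and Tbx3 had one only in AAV-GFP. The share of all genes marked in 1 list only is not given at this length, so these genes cannot be read as a trait of the members. This limit was chosen after the data were seen.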

How the data were processed

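H3K27-me3 ChIP-seq libraries from the liver of 2 mice per virus group were processed by the authors with the AQUAS pipeline for histone marks against a pooled input. Reads were mapped to mm10, and the submitters' processing notes name BWA 0.7.13, SAMtools 1.2 and Picard 1.126. Peaks were called with MACS, and those found across replicates were kept, as 1 list per group. For each peak the deposited lists give a fold enrichment over the local background, a ratio, and the −log10 of a p-value and a q-value. These were used to describe, rank and filter peaks within a list, and folds were not compared between lists. The deposited display score was not used. The lists hold no read counts, so depth is unknown.

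Members were found by gene name in GENCODE M21, which has the coordinates of GRCm38. The members and lists were chosen with earlier results of these data known. Presence was taken within 1 kb and 15 kb of the start sites of basic protein-coding transcripts and over gene bodies, and overlap as at least 1 bp. The widest region was taken among those within 1 kb or over the body. Maps and profiles used the most upstream start site. All 32 members were accounted for, with values in full for those marked within 1 kb in 1 list or neither, the 5 with the largest covered length, and 1 to 3 members per subfamily. Distances, coverage and overlap were computed with Python 3.11.15, numpy 2.4.6 and pysam 0.24.0 and tested on simulated regions. Alternatives were q-value limits of 0.05 and 0.01, 34586 top peaks in both lists, a minimum width of 300 bp, merging within 1 kb, windows of 5 and 50 kb, all protein-coding transcripts and, added later, the same covered length. The input libraries have no peak list of their own and enter only through the peak calls.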

Additional observations from a re-analysis of the deposited data

How the results depend on the processing

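Leaving out a replicate could not be run, since each list pools both libraries of its group. No paired analysis was possible because the lists hold no value per library. Members marked within 1 kb and within 15 kb stayed within 1.5 times their number in each list under every alternative that was run. The number marked within 1 kb only in AAV-Cre moved from 1 to 3 at a q-value of 0.01 or lower (Sox12, Sox14 and Tbx3), to 3 with a minimum width of 300 bp (Sox9, Sox12 and Tbx3), to 3 with the 5 kb window (Sox7, Sox12 and Tbx19) and to 2 with all protein-coding transcripts (Sox12 and Tbx19). Sox12 was in each of these lists. With AAV-Cre limited to the covered length of AAV-GFP, chosen after seeing the data, the number marked only in AAV-GFP moved from 0 to 6. The limits cut the lists unequally. At a q-value of 0.01 or lower 43654 AAV-Cre and 11930 AAV-GFP regions remained, and with the minimum width 59267 and 12841. The share of all genes marked in 1 list only is not given under these alternatives, so the numbers at the members cannot be set against it.

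Median body coverage in AAV-GFP moved from 14.1% to 9.96% and 7.98% at q-values of 0.05 and 0.01, to 11.4% with the minimum width and to 22.7% with peaks merged within 1 kb. In AAV-Cre it moved from 49.9% to 52.6% with merging and to 12.9% at the same covered length, where it fell below the AAV-GFP value. The median widest region moved with merging to 10225 bp in AAV-Cre and 4277.5 bp in AAV-GFP, and to 5853.5 bp in AAV-Cre at the same covered length. The causes were not tested beyond what each alternative changes by construction.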
